A study of Caenorhabditis elegans with 12 samples.

Results

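Endogenous small RNAs were compared between adult hrde-2 mutants and their control, both fed bacteria that make L4440 dsRNA, at every gene listed in the deposited count table. The comparison used 6 of the 12 samples of the series. The mutant group was 3 samples of whole adults of strain YY1192, genotype hrde-1(gg594);hrde-2(gg517), and the control group was 3 samples of whole adults of strain YY1312, genotype hrde-1(gg594), which the sample titles call wild-type. Both groups thus carry hrde-1(gg594), and the labels do not say what either allele changes. L4440 is the empty feeding vector, so no worm gene was its target. The animals were kept at 20 °C, and 2 µg of RNA enriched for small RNAs went into libraries whose cloning does not depend on a 5′ monophosphate. All hrde-2 libraries carried the 5′ barcode CGTC and all control libraries AGCG, so the genotype and the barcode cannot be told apart.

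In Caenorhabditis elegans, RNA-dependent RNA polymerases copy target transcripts into secondary small interfering RNAs that carry a 5′ triphosphate and are bound by worm-specific Argonaute proteins. HRDE-1 is the germline nuclear Argonaute of this group, and it carries silencing from parent to progeny. hrde-2 is a gene named for its need in heritable RNAi. In a library of this kind, reads at a protein-coding gene are taken to report mostly such small RNAs, while reads at tRNA and rRNA genes report pieces of those abundant RNAs. The treatment of strand was not given, so pieces of an mRNA cannot be told apart here from small RNAs against it.

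Each group was deposited as 1 count column, with 39077097 reads assigned to genes in the hrde-2 column and 25323188 in the control column. The spread between the 3 samples of a group is therefore not visible, and the L4440 difference has no test. Each ratio is given with an exact 95% binomial interval that covers counting error only. Levels are in CPM, each count relative to a library size scaled by TMM, which sets the scale so that most features come out near equal. Of 46726 identifiers, 28993 had a read in at least 1 of the 2 L4440 columns, and the 2138 features with at least 5 CPM in the higher column were compared. That level is 333 reads in the hrde-2 column and 81.8 reads in the control column.

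A difference of 2-fold or more was counted. In hrde-2 animals 281 of the 2138 features were higher by that measure (13.1%) and 631 lower (29.5%). Among the 1333 protein-coding genes compared, 193 were higher (14.5%) and 260 lower (19.5%). Reads that match several places can be listed at each of them, so a protein-coding gene was set apart where its span overlaps a structural RNA (122 genes) or where its reads were nearly the same as those of a second gene in each of the 4 columns (190 genes). This left 1041 protein-coding genes without shared reads, with 143 higher (13.7%) and 200 lower (19.2%). Their median log2 difference, hrde-2 minus control, was −0.37, and that of all features was −0.47.

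The balance of higher and lower genes was set by the scaling. The hrde-2 column stood at 4.08 times the control column by TMM, 4.07 times by DESeq2 size factors and 3.97 times over miRNA genes alone, but at 2.33 times by the authors' deposited factors and 1.54 times by gene-assigned reads. Relative to TMM, the authors' factors add 0.81 to every log2 difference and library size adds 1.40. Of the 1041 protein-coding genes, 290 were then higher and 68 lower under the authors' factors, and 536 higher and 30 lower under library size. Differences between genes within the comparison do not depend on this choice, while genes between about −1.40 and 0 under TMM change side under library size.

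**Figure D1:**
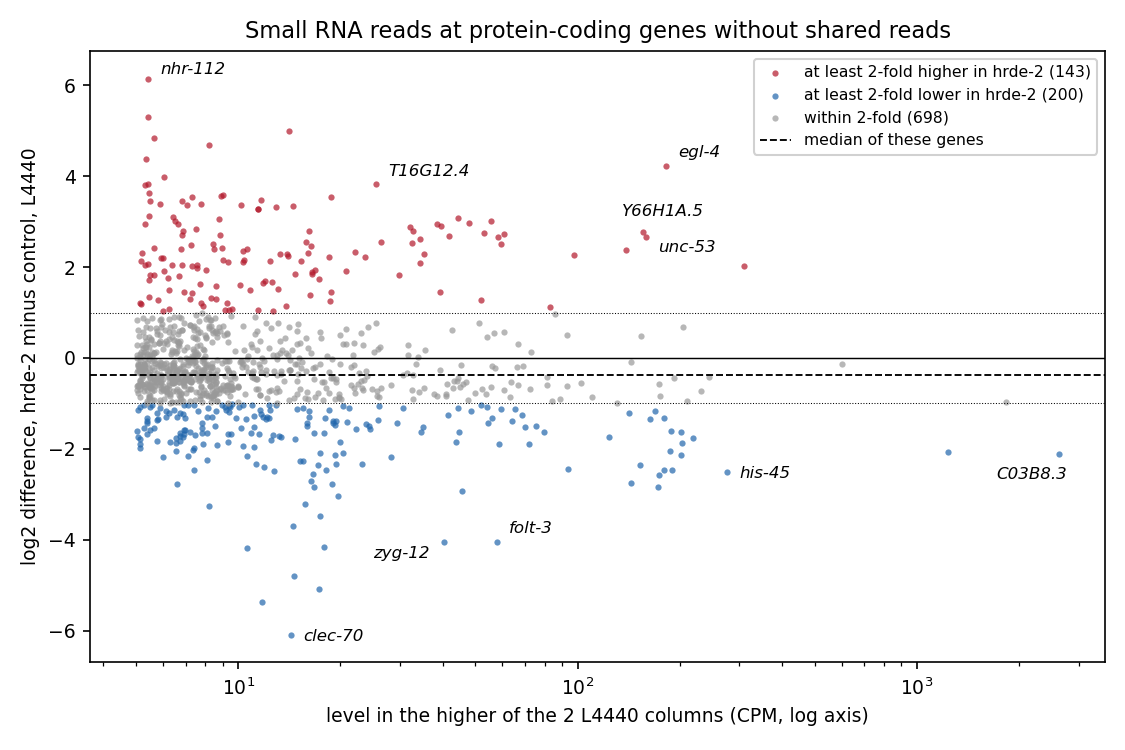
Level in the higher of the 2 L4440 columns (CPM, log axis) against the log2 difference, hrde-2 minus control, for the 1041 protein-coding genes without shared reads, 1 point per gene. The 143 genes at least 2-fold higher in hrde-2 include egl-4 at 4.23, the 200 lower include zyg-12 at −4.04, and the dashed line marks the median of −0.37.

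The genes furthest above equal were, by the naming rule, the 15 with the largest positive log2 difference among protein-coding genes without shared reads at 20 CPM or more. egl-4, the gene of a cGMP-dependent protein kinase of sensory neurons, led with 12128 reads in hrde-2 animals and 158 in control animals. This was 182 CPM in hrde-2 against 9.66 CPM in control, a ratio of 18.8 (16.1 to 22.2). No other gene of the 15 came within 1 log2 unit of egl-4 except T16G12.4 (WBcel235 chromosome III, 10057818 to 10058684, 3 exons), which had 1694 reads in hrde-2 and 29 in control, a ratio of 14.3 (9.94 to 21.5).

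The remaining 13 genes lay close together, at ratios of 6.32 to 8.46. Among genes with a known product, ceh-91, a homeobox gene, had 2575 reads in hrde-2 and 82 in control. ins-30, an insulin-like peptide gene, had 2632 reads in hrde-2 and 86 in control. spr-3, which encodes a zinc finger protein found in screens on presenilin, had 3533 reads in hrde-2 and 129 in control. The ratios of these genes were 7.71 (6.18 to 9.72), 7.51 (6.06 to 9.42) and 6.72 (5.64 to 8.08), so their counting intervals overlap and give no order among them.

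unc-53, which guides migrating cells and axons, had 10604 reads in hrde-2 and 412 in control, a ratio of 6.32 (5.72 to 6.99). teg-1, a splicing-associated gene that limits germline proliferation, had 2792 reads in hrde-2 and 106 in control, a ratio of 6.46 (5.32 to 7.92). The chemoreceptor gene srg-67 had 4050 reads in hrde-2 and 149 in control, and the F-box gene fbxa-56 had 3890 in hrde-2 and 151 in control. Thus the genes at the top encode a kinase, a transcription factor, a peptide, a receptor, a cytoskeletal protein and a splicing factor, on chromosomes I, II, III, IV, V and X. F59E12.6, T25G12.6, F52F12.5, Y70G10A.3, Y48G1BM.6 and Y66H1A.5 complete the 15. Y66H1A.5 had 10400 reads in hrde-2 and 375 in control.

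Of the 15 genes furthest below equal under the same rule, 8 were histone genes. zyg-12, which joins the centrosome to the nuclear envelope, stood lowest with 162 reads in hrde-2 and 660 in control, or 2.43 CPM in hrde-2 against 40.3 CPM in control. Its ratio was 0.0602 (0.0504 to 0.0716). folt-3, of the folate transporter family, was as far below equal, with 233 reads in hrde-2 and 944 in control and a ratio of 0.0606 (0.0523 to 0.0700).

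T10D4.6 had 397 reads in hrde-2 and 746 in control, a ratio of 0.131 (0.115 to 0.148). fkb-8, of the FK506-binding protein family, had 2170 reads in hrde-2 and 2937 in control, and elmd-1, an ELMO domain gene, had 304 in hrde-2 and 378 in control. Both had fewer reads in hrde-2 although that column is the deeper one, and after scaling their ratios were 0.181 (0.171 to 0.192) and 0.197 (0.169 to 0.230). C03B8.3 (WBcel235 chromosome III, 7712309 to 7717314) had 40111 reads in hrde-2 and 42852 in control. At 602 CPM in hrde-2 against 2619 CPM in control its ratio was 0.230 (0.227 to 0.233), the narrowest interval among the 15.

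**Figure D2:**
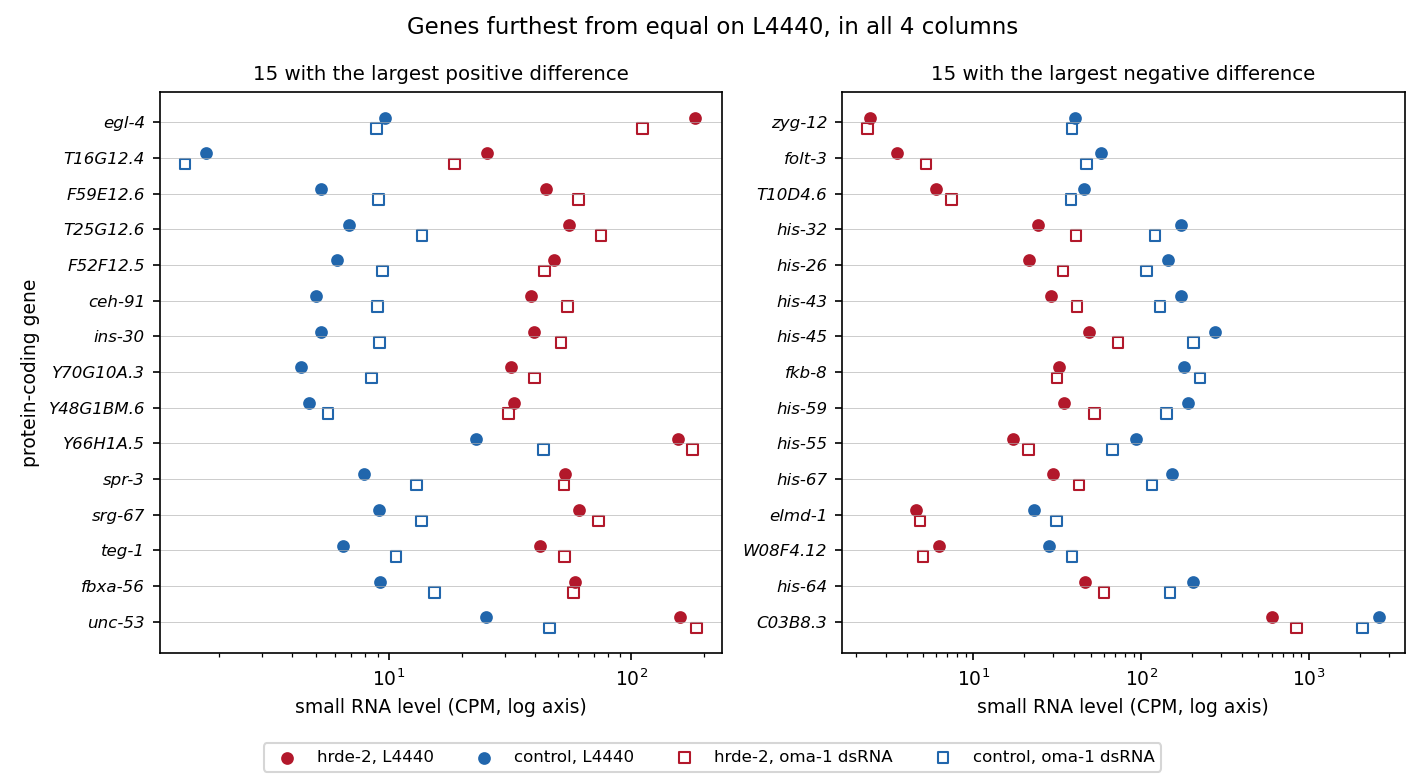
Small RNA level (CPM, log axis) of the 15 genes with the largest positive and the 15 with the largest negative log2 difference on L4440, with hrde-2 in red and control in blue, filled circles for L4440 and open squares for oma-1 dsRNA. In every one of the 30 genes the hrde-2 and control symbols keep the same order on both foods.

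The same genotypes were also fed oma-1 dsRNA, in columns that the L4440 comparison does not use. Of the 143 protein-coding genes at least 2-fold higher on L4440, 121 passed the same call there (84.6%), beside 14.4% of all 1041 genes. Of the 200 lower genes, 149 were lower there too (74.5%), beside 22.1% of all. On the other side of equal on oma-1 dsRNA stood 1 of the 143 and 3 of the 200. Genotype and barcode go together on both foods, so that this repeat does not separate them.

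A fit over both foods (edgeR's quasi-likelihood test, food and genotype as terms, Benjamini-Hochberg adjustment over 16329 features) tests the genotype difference averaged over foods, with 1 residual degree of freedom and a spread borrowed from all features. It passed an adjusted p of 0.05 for 1461 features that rose in hrde-2 (8.95%) and 1584 that fell (9.7%). The fit includes the L4440 columns by which the 143 higher and 200 lower genes were chosen, so that 142 of the 143 rising and 188 of the 200 falling in it is a description and no separate support. By library size the same fit passed 10262 features that rose and 214 that fell, so its split moves with the scaling as well. egl-4 rose by 3.93 on the log2 scale (edgeR adjusted p = 8.01e-17) and T16G12.4 by 3.76 (edgeR adjusted p = 3.35e-22). zyg-12 fell by 4.05 (edgeR adjusted p = 6.94e-23) and folt-3 fell by 3.62 (edgeR adjusted p = 1.37e-17). C03B8.3 fell by 1.72 (edgeR adjusted p = 0.00585). All of these named genes were chosen by the same L4440 columns, so their p-values are a description and no separate support. As each column pools its samples, these p-values do not measure the spread between samples.

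Agreement between the foods was lowest for genes at low levels, without a steady order above 5 CPM. Among protein-coding genes without shared reads at 0.5 to 1 CPM, 39.1% of the genes higher on L4440 by 2-fold or more were also higher on oma-1 dsRNA, and 36.3% of those lower. At 5 to 10 CPM the shares were 84.9% and 63.6%, at 10 to 20 CPM 74.4% and 78.5%, and at 20 to 100 CPM 100% of 26 higher genes and 81.6% of 38 lower genes. At 100 CPM or more, 5 of 39 genes were higher and 20 lower, with the same call on oma-1 dsRNA for 80% and 90% of them. The median log2 difference of these 39 was −1.18, against −0.32 for the 632 genes at 5 to 10 CPM. Lower genes thus made up 51.3% of the genes at 100 CPM or more and 12.2% of those at 5 to 10 CPM. Of the 20 lower genes at 100 CPM or more, 8 were histone genes, and without histone genes 12 of 31 were lower there (38.7%), against 11.9% of 628 at 5 to 10 CPM.

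Called genes were found on every chromosome, in different shares. Higher genes made up 20.9% of the 182 genes compared on chromosome V and 19.6% of the 92 on X, against 9.41% to 13.98% on chromosomes I to IV. Lower genes made up 16.3% to 20.9% on each of these 6 chromosomes. Some higher genes on V and X had near-equal reads at levels below the reach of the shared-read mark. nhr-112, clc-6, C04E6.4, F35E8.10 and F35E8.13 on V and M60.6 on X had 354 to 377 reads in hrde-2. In control they had 1 to 7. T09F5.1 on V was likewise near-equal to hst-2 on X. The higher genes on V and X are thus not all separate observations. Genes under 1 kb of exonic sequence were lower in 28.6% of 262 cases, and genes of 3 kb or more in 9.29% of 323. The 79 single-exon genes had a median log2 difference of −0.33, with 4 higher and 19 lower. Without the histone genes the median of the other 51, of which 23 are major sperm protein genes, was 0.55.

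Counts of list members are set beside those of all protein-coding genes compared, of which 14.5% were at least 2-fold higher and 19.5% lower. The fit over both foods passed 8.95% of features that rose and 9.7% that fell, over 16329 features without the 5 CPM limit. Among the 1333 protein-coding genes compared, it passed 191 of the 193 higher as rising and 237 of the 260 lower as falling. Fit counts of list members, all at 5 CPM or more, therefore have no like share here. Of the gene lists, histone genes held the most members that were lower. Core histone mRNAs of the worm lack a poly(A) tail, and their genes lie in clusters. 64 of the 84 histone genes listed were compared, of which 33 were at least 2-fold lower in hrde-2 (51.6%, beside 19.5%) and 0 higher (beside 14.5%), with a median log2 difference of −1.09 against −0.36 for all protein-coding genes compared. In the fit over both foods 31 fell and 0 rose (edgeR, adjusted p under 0.05). Of the 64, 32 shared reads with another feature by the mark above, so that reads cannot be assigned among those copies. The summed level of the embryonic miRNA genes mir-35 to mir-42 was lower too, at 17.9 CPM in hrde-2 and 115 CPM in control, and its part in this was not tested. mir-41 and mir-42 carried most of that sum, while mir-36 and mir-39, at 1 and 2 reads in control, were on the other side of equal.

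his-32 had 1606 reads in hrde-2 and 2831 in control, a ratio of 0.139 (0.131 to 0.148). his-26 had 1420 reads in hrde-2 and 2353 in control, and his-45 had 3253 in hrde-2 and 4520 in control. The 8 histone genes among the 15 lowest thus stood at 0.139 to 0.227 of control, but 5 members, his-54, his-8, his-34, his-29 and his-44, were slightly above equal, at 0.07 to 0.28 on the log2 scale. The cluster on chromosome II (WBcel235, 13817760 to 13827709) held 9 lower histone genes in a row, at −2.75 to −1.38. Of these, 4 were without shared reads, and his-9 and his-13 had identical counts. Clusters on chromosome IV held runs of 4 (his-59 to his-62), and of 3 around his-32, his-55 and his-64. In these runs 2, 1, 1 and 2 genes in turn were without shared reads. The genes of a run are thus not all separate observations.

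Of 91 spermatogenesis genes listed 29 were compared, 28 of them major sperm protein genes and the other spe-18. The major sperm protein genes lay on the other side of the median, though nearly all within 2-fold. The 29 compared had a median log2 difference of 0.57, and 1 of them was higher by 2-fold or more and 1 lower. The 28 major sperm protein (msp) genes, which encode the cytoskeletal protein and oocyte signal of nematode sperm, ran from 0.26 at msp-49 to 1.18 at msp-81. msp-81 had 344 reads in hrde-2 and 37 in control. The msp genes are close copies of each other. The mark for shared reads caught 5 of the 28 and left 23 among the 1041 genes, so that these values and counts may not be separate observations. In the fit over both foods 18 of the 29 rose and 1 fell (edgeR, adjusted p under 0.05). The gene that fell was spe-18, a sperm gene with 34 reads in hrde-2 and 239 in control, a log2 difference of −4.80 on L4440.

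Of 37 oogenic germline genes listed 13 were compared, centred at a log2 difference of −0.81 on L4440 and −0.38 on oma-1 dsRNA. All protein-coding genes compared were centred at −0.36 on L4440 and −0.20 on oma-1 dsRNA. Of the 13, 5 were at least 2-fold lower (38.5%, beside 19.5%) and 1 higher (7.69%, beside 14.5%). perm-4, needed for the eggshell's permeability barrier, had 214 reads in hrde-2 and 254 in control, a ratio of 0.207 (0.172 to 0.249). The other lower genes were cpg-2, an eggshell proteoglycan gene at −1.33, cey-2, a Y-box RNA-binding protein gene at −1.29, cgh-1, a germline RNA helicase gene at −1.29, and the yolk receptor gene rme-2 at −1.11. The reads of cgh-1 were shared with another feature. These calls are under TMM, and under library size cpg-2, cey-2, cgh-1 and rme-2 stood slightly above equal, at 0.065 to 0.292. daz-1, an RNA-binding protein gene of oogenesis, stood apart with 4187 reads in hrde-2 and 177 in control, a log2 difference of 2.54, and these reads were near-equal to those of F28C10.3 on chromosome X. In the fit over both foods 1 of the 13 rose and 5 fell (edgeR, adjusted p under 0.05).

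Meiosis and chromosome segregation genes had 15 members compared, with a median log2 difference of −0.37. Apart from zyg-12, the only member at least 2-fold away was him-3, which encodes a chromosome axis protein, with 680 reads in hrde-2 and 39 in control, a log2 difference of 2.09. The reads of him-3 were shared with another feature.

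Genes of the small RNA machinery were within 2-fold under TMM, except wago-1. The median log2 difference was 0.05 for Argonaute genes and 0.16 for other small RNA pathway genes, or 0.41 and 0.52 above that of all protein-coding genes. Muscle genes stood 0.50 above it. Of 8 Argonaute genes compared, 0 were at least 2-fold higher and 1 lower, wago-1, a germline Argonaute gene, with 288 reads in hrde-2 and 149 in control. hrde-1, whose allele both groups share, had 887 reads in hrde-2 and 201 in control, 13.3 CPM in hrde-2 against 12.29 CPM in control. csr-1, prg-1 and wago-4 were at log2 differences of 0.06, 0.44 and 0.05. Of 15 other small RNA pathway genes compared, among them pgl-1, glh-1, ego-1, znfx-1 and sid-1, 0 were 2-fold away in either direction, and they ran from −0.78 at rde-4 to 0.83 at rde-11. In the fit over both foods 1 of the 15 rose and 1 fell (edgeR, adjusted p under 0.05).

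The mutated gene itself was below the level compared. hrde-2 had 50 reads in hrde-2 animals and 7 in control animals, a ratio of 1.75 (0.791 to 4.58). Small RNA reads at a gene do not measure its transcript, so that this does not check the genotype. oma-1, which no food targeted here, had 148 reads in hrde-2 and 37 in control, a ratio of 0.982 (0.681 to 1.45).

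Of 5 chromatin silencing genes compared, spr-5, a histone demethylase gene, was at least 2-fold higher, with 6519 reads in hrde-2 and 333 in control, a log2 difference of 2.26. In the fit over both foods spr-5 was the 1 of the 5 that rose and 0 fell (edgeR, adjusted p under 0.05). met-2, set-9 and set-26, genes of histone methyltransferases and related proteins, were within 2-fold at −0.21 to 0.44.

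**Figure D3:**
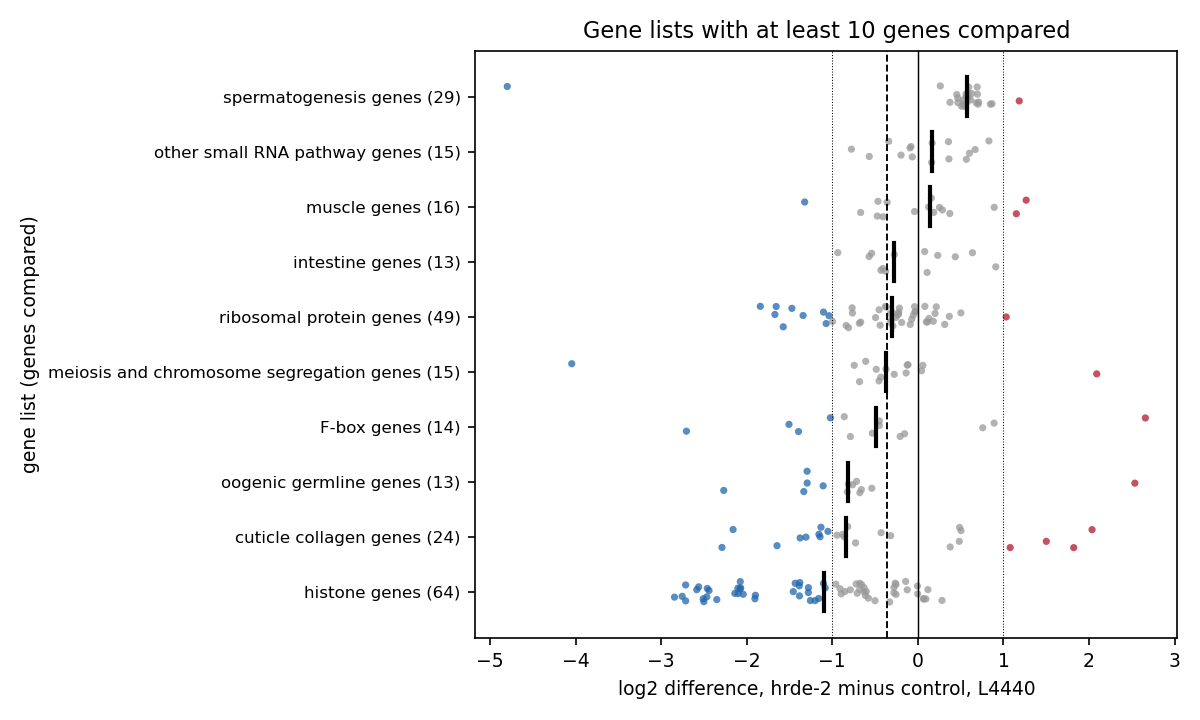
Log2 difference, hrde-2 minus control on L4440, of each gene compared in the 10 gene lists with at least 10 such genes, with the list's median as a thick line, all protein-coding genes' median of −0.36 as a dashed line, and genes at least 2-fold higher in red or lower in blue. Histone genes lie at the low end with a median of −1.09. Spermatogenesis genes, 28 of the 29 being msp genes, lie at the high end with 0.57.

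Lists of somatic genes were mixed. Of 24 cuticle collagen genes compared, 4 were at least 2-fold higher (16.7%, beside 14.5%) and 9 lower (37.5%, beside 19.5%), with a median log2 difference of −0.84. The share that was higher was thus near that of all protein-coding genes. col-181 had 105559 reads in hrde-2 and 126596 in control, but shares them with another feature, so that these reads cannot be assigned to it. col-75 had 354 reads in hrde-2 and 21 in control, and col-38 had 105 in hrde-2 and 116 in control. In the fit over both foods 6 collagen genes rose and 11 fell (edgeR, adjusted p under 0.05).

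Of 16 muscle genes compared, ttn-1, the titin gene, had 3469 reads in hrde-2 and 354 in control, and unc-60, the cofilin gene, had 526 in hrde-2 and 58 in control. Both were at least 2-fold higher, at 1.27 and 1.15 on the log2 scale. dys-1, the dystrophin gene, was the 1 lower, at −1.32. The myosin heavy chain gene unc-54 was near equal, with 1677 reads in hrde-2 and 377 in control. Of 13 intestine genes compared, 0 were 2-fold away. The yolk protein genes vit-1 to vit-6 ran from −0.94 to −0.38, and the aspartic protease genes asp-1, asp-2, asp-3, asp-5 and asp-6 from 0.08 to 0.91.

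Of 49 ribosomal protein genes compared, 1 was at least 2-fold higher and 9 lower (18.4%, beside 19.5% of all protein-coding genes), with a median log2 difference of −0.30 on L4440 and 0.43 on oma-1 dsRNA. rpl-41.2 had 547 reads in hrde-2 and 400 in control, a log2 difference of −1.57, and rps-25 had 401 in hrde-2 and 48 in control, 1.03.

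Most members of the large, fast-evolving gene families were under the level compared. 14 of the 322 F-box genes listed were compared, 1 higher and 4 lower. fbxc-44 had 166 reads in hrde-2 and 267 in control, a log2 difference of −2.70 that was the lowest of these. Without shared reads 9 F-box genes were left, 1 higher and 3 lower. Of 1300 chemoreceptor genes over the 3 lists of receptor families, 9 were compared, 3 higher and 4 lower. The lower genes sre-13 and srbc-38, and srw-85 within 2-fold, shared reads with another feature, so that these reads cannot be assigned to them. srz-70 had 548 reads in hrde-2 and 5 in control, and sru-17 had 18 in hrde-2 and 192 in control, ratios of 26.9 (11.5 to 83.2) and 0.0230 (0.0133 to 0.0373). Of 269 nuclear hormone receptor genes 8 were compared, 2 higher and 2 lower. nhr-25, a developmental regulator of moulting, had 1469 reads in hrde-2 and 71 in control, a log2 difference of 2.34, and nhr-249 was at −1.91.

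Of 89 MATH, BATH and BTB genes 7 were compared, 2 higher and 0 lower, with math-1 at 935 reads in hrde-2 and 48 in control, a log2 difference of 2.25. Of 239 C-type lectin genes 6 were compared, 2 higher and 1 lower. clec-215 had 444 reads in hrde-2 and 14 in control. Of 118 glutathione transferase and cytochrome P450 genes 5 were compared, 2 higher and 2 lower, with gst-43 at a log2 difference of −3.48 and cyp-33D1 at 2.11. Of these 5, 3 shared reads with another feature, which left 2 genes, 1 higher and 1 lower. The lower gene cyp-14A4 was among the 3, with reads near-equal to those of tRNA genes, so that they cannot be assigned to it. Of 140 neuropeptide genes 3 were compared, and ins-30 was the 1 higher. Of 30 cGMP and sensory signalling genes 4 were compared, and egl-4 was the 1 higher, while saeg-2, che-3 and pde-2 were at 0.23, −0.09 and −0.56.

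tRNA and rRNA genes were the classes furthest below equal by median, and each took a similar share of gene-assigned reads in both columns. tRNA genes took 54.5% of reads in hrde-2 and 59.3% in control, and rRNA genes 14.8% in hrde-2 and 14.7% in control, so that a lower value here is relative to the TMM scale. Of 246 tRNA genes compared, 10 were at least 2-fold higher (4.07%, beside 13.1% of all features compared) and 175 lower (71.1%, beside 29.5%). Their median log2 difference was −1.59 on L4440 and −0.61 on oma-1 dsRNA. Of the 246, 130 had near-equal reads to another feature, in groups of up to 15 copies, so that the 175 are not separate observations. Of the 175, 82 were also lower on oma-1 dsRNA (46.9%), beside 34.6% of all 246 tRNA genes compared. All 8 nuclear tRNA genes that were higher lie on X, among 101 compared there (7.92%, beside 13.1% of all features), while 0 of 124 on autosomes were higher. Most tRNA genes were lower on X as on autosomes, at 72.3% and 75%, with median log2 differences of −1.73 and −1.66. R04E5.t1 on X had 10178 reads in hrde-2 and 334 in control, a log2 difference of 2.90, and ZK154.t5, also on X, had 194 in hrde-2 and 916 in control, −4.26.

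The 15 rrn-4 genes, which encode the small ribosomal RNA made outside the main rRNA repeat, were all at least 2-fold lower, with a median log2 difference of −1.59 on L4440 and −2.41 on oma-1 dsRNA. They are copies with near-equal reads, so that they count as 1 observation. The 5 larger nuclear rRNA genes compared were within 2-fold, with a median of −0.25. The spliced leader genes sls-1, which lie between the rrn-4 copies in an array on chromosome V (WBcel235, 17115903 to 17131456), had a median of −1.01 with 9 of 12 lower. Those 9 had identical counts, 23544 in hrde-2 and 11606 in control, so that they are 1 observation just past 2-fold. Over 65 snRNA genes 2 were higher (3.08%, beside 13.1% of all features) and 37 lower (56.9%, beside 29.5%). Over 76 snoRNA genes 11 were higher (14.5%) and 23 lower (30.3%), near the shares of all features.

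The snoRNA genes ranged widely. Y38F2AR.14 had 33302 reads in hrde-2 and 845 in control, a log2 difference of 3.27, and F28C6.11 had 456 in hrde-2 and 1997 in control, −4.15. Of 35 genes of the mitochondrial genome 2 were higher (5.71%, beside 13.1% of all features) and 13 lower (37.1%, beside 29.5%), with a median of −0.87. MTCE.1, a mitochondrial tRNA gene, had 3420 reads in hrde-2 and 8899 in control, a log2 difference of −3.41, and MTCE.2, another, had 2219 in hrde-2 and 234 in control, 1.22.

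**Figure D4:**
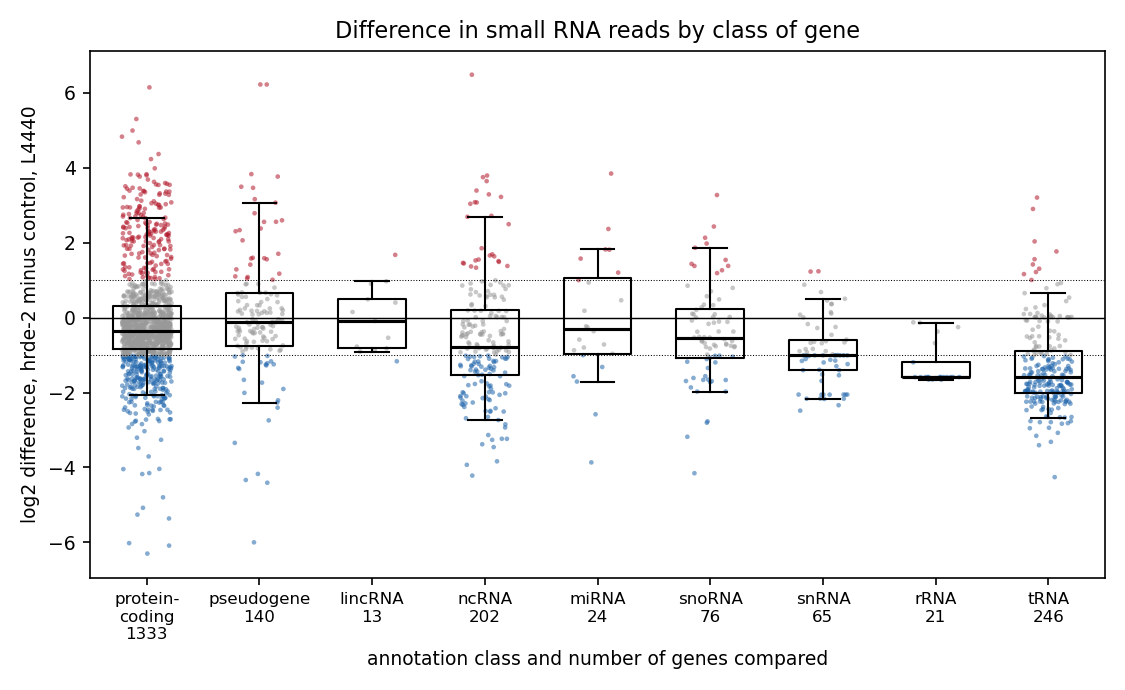
Log2 difference, hrde-2 minus control on L4440, by annotation class, 1 point per gene compared, with the median, the quartiles and whiskers from the 5th to the 95th percentile. Under TMM, protein-coding genes and pseudogenes have medians of −0.36 and −0.12, while tRNA and rRNA genes centre at −1.59.

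Of 140 pseudogenes compared, 28 were at least 2-fold higher (20%, beside 13.1% of all features) and 25 lower (17.9%, beside 29.5%). Their median log2 difference was −0.12 under TMM. lips-16, annotated as a pseudogene of the lipase-like family, had 14861 reads in hrde-2 and 528 in control, a log2 difference of 2.79, and Y54G2A.21 had 2629 in hrde-2 and 57 in control, 3.49. On the lower side, 3 neighbouring pseudogenes on chromosome V, C25D7.12, C25D7.14 and C25D7.2, had 50, 42 and 39 reads in hrde-2 and 127, 213 and 177 in control. Their log2 differences were −3.34, −4.34 and −4.17, and C25D7.2 had near-equal reads to C40A11.7 on chromosome II. Of 202 ncRNA genes 146 overlap a structural RNA. Of the 202, 26 were higher (12.9%, beside 13.1%) and 86 lower (42.6%, beside 29.5%), with a median of −0.78.

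Of 13 long intergenic RNA genes, linc-22 on X was the 1 higher, with 73981 reads in hrde-2 and 5682 in control, a log2 difference of 1.68. It lies in a stretch of X (WBcel235, 9069138 to 9113619) with F47E1.13, ajm-1, H08J11.11 and H08J11.13, all at least 2-fold higher and all with shared reads. Of 15363 piRNA genes listed, 2208 had a read and 3 were compared, so that piRNAs are not described further.

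Of 230 miRNA genes listed 143 had a read on L4440, and 24 were compared. Of these, 7 were at least 2-fold higher (29.2%, beside 13.1% of all features) and 6 lower (25%, beside 29.5%). Their median log2 difference was −0.31. miRNAs carry a 5′ monophosphate and are cut from hairpins by Dicer, and they took 0.700% of gene-assigned reads in hrde-2 and 0.272% in control. All 7 higher miRNA genes passed the same call on oma-1 dsRNA, and 3 of the 6 lower ones were lower there. Over all 24, 7 were higher (29.2%) and 3 lower on oma-1 dsRNA.

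Beside mir-44 and mir-49, the higher group held 2 related pairs or clusters. mir-48, a developmental timing miRNA of late larvae and adults, had 10687 reads in hrde-2 and 508 in control, 160 CPM in hrde-2 against 31.1 CPM in control. mir-241, of the same family, had 3063 reads in hrde-2 and 52 in control, but its reads were near-equal to those of the protein-coding gene F15D4.5 on another chromosome and cannot be assigned to either. In the cluster on chromosome III, mir-64 had 50300 reads in hrde-2 and 3493 in control, mir-65 had 61264 in hrde-2 and 5042 in control, and mir-66 had 16217 in hrde-2 and 1729 in control. These were log2 differences of 1.82, 1.58 and 1.20. mir-229, at one end of that cluster, went the other way, with 1798 reads in hrde-2 and 884 in control, a ratio of 0.499 (0.460 to 0.542).

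The lower group was led by the embryonic mir-35 family, which maternal oocytes and embryos carry. mir-42 had 126 reads in hrde-2 and 454 in control, a log2 difference of −3.87, and mir-41 had 898 in hrde-2 and 1320 in control, −2.58. Over the 8 genes mir-35 to mir-42 the sum given above for L4440 stood beside 26.9 CPM in hrde-2 and 114 CPM in control on oma-1 dsRNA, and none was at 0 in all columns. mir-58a, a broadly expressed miRNA, had 23897 reads in hrde-2 and 14625 in control, a log2 difference of −1.32. Over the late larval and adult list (mir-48, mir-241, mir-84 and lin-4) the sum was 206 CPM in hrde-2 and 34.2 CPM in control. In it mir-84 was at 0 or 1 read in each column and lin-4 was listed at 0. The planned list also held let-7, which is not in this sum. The sum thus rests on mir-48 and on mir-241, whose reads cannot be assigned to it. The broadly expressed mir-58a, mir-58b and mir-71 summed to 359 CPM in hrde-2 and 894 CPM in control, with mir-71 listed at 0. mir-1 of muscle and mir-124 of neurons were listed at 0 in all columns. Embryo content and stage of the samples thus cannot be told apart from the genotype by these markers, and their part in the differences at oogenic and sperm genes was not tested either.

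**Figure D5:**
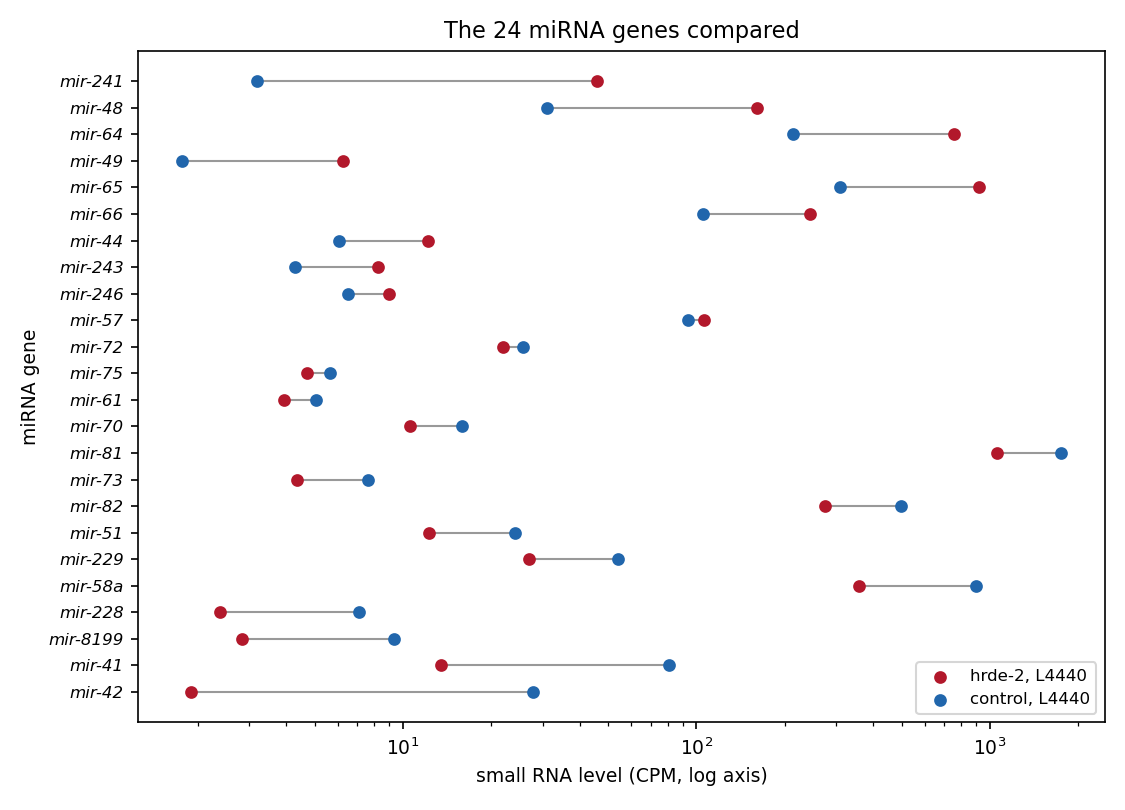
Small RNA level (CPM, log axis) of the 24 miRNA genes compared, hrde-2 in red and control in blue, joined by a line for each gene and ordered by log2 difference. mir-241 and mir-48 stand at the top with hrde-2 higher, and mir-41 and mir-42 at the bottom with control higher.

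Genes whose reads could not be told apart held some of the largest differences. In all, 142 groups of genes with near-equal reads in the 4 columns had a member compared. They held 433 genes, and 85 of them spanned several chromosomes. By group median, 17 were at least 2-fold higher and 56 lower. The pair acs-16 on chromosome I and T14F9.2 on X stood at −6.30 and −6.02, and mab-20, pyp-1 and cutl-28 at 3.77, 3.31 and 3.56. The set of W08A12.3, Y39F10C.1, C47C12.7 and C38H2.4, which lie on chromosomes V, II, X and III, had 1491 to 1545 reads in hrde-2 and 43 to 48 in control. Among genes with fewer reads, the same was seen for the pseudogenes AC8.7 and AC8.12 on X, each with 382 reads in hrde-2 and 1 in control. nhr-112, at the top of the plot of level against difference with 362 reads in hrde-2 and 1 in control, had near-equal reads to clc-6 (377 in hrde-2 and 3 in control) and other genes. clec-70, at the bottom of that plot with 13 reads in hrde-2 and 234 in control, was close to the pseudogene ZK783.6, with 14 in hrde-2 and 236 in control. Leaving out protein-coding genes with a partner at fewer reads, within 5% or 5 reads in each of the 4 columns, left 131 higher and 190 lower of 913. clec-70 did not meet that limit and was kept.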

How the data were processed

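Small RNA libraries of whole adults were multiplexed with a 4-base 5′ and a 6-base 3′ barcode, per the labels' protocols. The authors deposited 1 table with a raw count per gene and group, which they made with HTSeq 0.6.1 per the submitters' processing notes, beside the same counts divided by a factor per column, a normalized signal per the file headers, which was used here only to read off those factors. The aligner, the genome build and annotation, the treatment of strand and of reads that match several places, and how 3 samples became 1 column were not given in the sources used here. Identifiers were matched to the Ensembl release 115 annotation of WBcel235 (46364 of 46726), and gene names shared by several genes were replaced by RefSeq symbols.

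Rows that name no gene were dropped. They held 65.3% of the reads listed in the hrde-2 column and 61.3% in the control column, mostly reads called ambiguous. Features were filtered (filterByExpr, minimum count 10, minimum total 15) and scaled by TMM over all 4 columns in edgeR 4.0.16 with R 4.3.3. Log2 differences used a prior count of 0.5, and ratios an exact conditional binomial interval from scipy 1.17.1. A feature was compared at 5 CPM in the higher L4440 column. Genes were marked as sharing reads where their span overlaps a tRNA, rRNA, snRNA, snoRNA or miRNA gene, or where another feature with at least 1000 reads differed by at most 5% or 15 reads in each column. On simulated data the fit over both foods recovered 46% of 100 features changed 2-fold and 100% of 100 changed 4-fold. There were 2 false calls among the unchanged of the 16329 features. Those data had the same spread for every feature, and the changed features were drawn only from those with more reads. Recovery at few reads was thus not measured.

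Named genes were, among features at 20 CPM or more, the 15 highest and 15 lowest protein-coding genes without shared reads, up to 5 in each direction per other class, and up to 5 per list, besides hrde-1, hrde-2, oma-1 and the 5 near-equal groups furthest from equal. Other named genes were chosen after their values were seen. The comparison, the lists and the rules were chosen with earlier results of these data known. Alternatives were other scalings, filters, prior counts, treatment of shared reads and DESeq2 1.42.0.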

Additional observations from a re-analysis of the deposited data

Results flagged for a closer look

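C27H6.5, a snoRNA gene on chromosome V, was the only feature of the 2138 compared that was at least 2-fold away in opposite directions on the foods. It had 640 reads in hrde-2 and 318 in control on L4440, a log2 difference of −1.02, and 808 reads in hrde-2 and 408 in control on oma-1 dsRNA, a log2 difference of 1.05. The difference between the foods was not tested.

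Reads at no annotated feature, which the comparison of genes does not use, made up 21.4% of the reads listed in the hrde-2 column on L4440 and 17.8% in the control column. On oma-1 dsRNA they made up 20.6% in hrde-2 and 17.6% in control. Where in the genome these reads lie cannot be read from the table.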

How the results depend on the processing

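Under library size, 990 features were at least 2-fold higher and 99 lower, with 536 higher and 30 lower protein-coding genes without shared reads, and the fit over both foods called 10262 higher and 214 lower. cgh-1 (0.11), cey-2 (0.104), cpg-2 (0.065), rme-2 (0.292), wago-1 (0.324), dys-1 (0.076), mir-58a (0.083), mir-229 (0.40) and C27H6.5 (0.383) then changed side. The authors' factors gave 541 higher and 267 lower features, and 290 higher and 68 lower genes. At 10 CPM the numbers were 170 higher features, 70 higher genes and 123 lower genes, of fewer compared, and with no filter 3390 higher and 2947 lower features and 2663 higher and 1599 lower genes, of which 40.1% and 38.8% had the same call on oma-1 dsRNA. DESeq2 called 407 higher and 685 lower in the fit over both foods. Relative to all protein-coding genes, list medians changed side at 10 CPM for F-box (0.028) and meiosis genes (0.16), with no filter for F-box (0.15), cuticle collagen (0.39), muscle (−0.019), other small RNA pathway (−0.028) and ribosomal protein genes (−0.22), for F-box genes without shared reads (0.16) and for meiosis genes without partners at lower reads (0.0037). Without changing side, they moved for oogenic genes at 10 CPM (−0.82), intestine genes without shared reads (0.45) and spermatogenesis genes with no filter (0.62), against −0.45, 0.085 and 0.93. Apart from the changed numbers of features compared, the cause was not tested. DESeq2 size factors, miRNA scaling, a prior count of 2, genes that share reads, and 2 alternatives chosen after seeing the data (no partners at lower reads, whole interval past 2-fold) kept each count within 1.5 times. Leaving out replicates was not possible, and no paired analysis was possible because each group is 1 column. Sharing of sequence words between genes was not run, since no genome was used here. Depth limits the hrde-2 column less than the control column, where 5 CPM is 81.8 reads.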

Other observations

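Other genes, chosen after their values were seen, were also called. The small heat shock protein genes hsp-16.48 and hsp-16.49 on chromosome V had 109 and 100 reads in hrde-2 and 82 and 83 in control, log2 differences of −1.61 and −1.75. The snRNA genes T27E4.10 and T27E4.11 beside them were lower as well. The reads of hsp-16.49 were near-equal to those of the ncRNA gene F44E5.16 on chromosome II, so that they cannot be assigned to either. The lectin gene clec-223 had 505 reads in hrde-2 and 30 in control on L4440, a log2 difference of 2.04, and 120 in hrde-2 and 131 in control on oma-1 dsRNA, −0.06. C13G3.8, an ncRNA gene on chromosome V, had 458 reads in hrde-2 and 1 in control, the largest positive log2 difference of any feature compared, 6.49.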
